A study of Mus musculus with 24 samples.

Results

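The 10 glucose uptake and glycolysis genes described here were measured in mouse P19 cells given 1 of 4 retinoids. They are the glucose transporters Slc2a1 and Slc2a3, the hexokinases Hk1 and Hk2, the phosphofructokinases Pfkl and Pfkp, the aldolase Aldoc, the enolase Eno2, the lactate dehydrogenase subunit Ldhb and the pyruvate dehydrogenase kinase Pdk1. They were picked by symbol: a probe set had to carry a single one of these symbols, and where a gene had more than 1 such probe set the brightest of them by its mean log2 intensity was used. All 10 had a value, out of 19938 genes with one. P19 is an embryonal carcinoma line, grown here as a monolayer on gelatine-coated plates, that differentiates under retinoic acid. ATRA (all-trans retinoic acid, 1 µM), BMS753 (an agonist of retinoic acid receptor alpha, 1 µM), BMS641 (an agonist of receptor beta, 0.1 µM) and BMS961 (an agonist of receptor gamma, 0.1 µM) were each profiled on 1 array at 2, 6, 24, 48 and 72 h, and the ethanol control (EtOH) on 4 arrays with no time in their labels. The labels do not say whether any of these 24 arrays come from separate cultures. The p-values thus measure only the spread between arrays, which may be technical. For means over several times, that spread also holds the agents' differing courses over those times.

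Cells take up glucose through transporters of the Slc2a family, and hexokinase traps it as glucose 6-phosphate. Phosphofructokinase catalyses the committed step of glycolysis, aldolase splits its product, enolase makes phosphoenolpyruvate, and lactate dehydrogenase interconverts pyruvate and lactate. Pyruvate dehydrogenase kinase inhibits the entry of pyruvate into the mitochondrial TCA cycle. Pluripotent stem cells are known for a high rate of glycolysis, and several of these genes are known targets of hypoxia-inducible factor (HIF) in other cells.

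Values are log2 intensities, and a change is a log2 intensity minus the mean of the 4 EtOH arrays. The array medians lay between 6.50 and 6.68, the highest being that of the 72 h ATRA array, with the next at 6.61. Pairs of EtOH arrays differed across genes by a standard deviation (SD) of 0.0941 to 0.143. The SD of the members over the EtOH arrays was 0.0256 (Slc2a3) to 0.107 (Aldoc). On the EtOH arrays the 12 pluripotency genes had mean log2 intensities from 4.83 (Zfp42) to 12.90 (Pou5f1), with Dppa5a at 5.49 and Dppa4 at 6.69. Genes used as markers of other cells also had bright probe sets there, with 11.24 for the neuron gene Stmn2 and 11.31 for the endoderm gene Sparc, and levels of different probe sets cannot be ranked. RNA came from whole cultures, so fewer cells of a type and less RNA per cell cannot be told apart.

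After 24 to 72 h of ATRA, 7 of the 10 genes were lower than in EtOH, 0 were higher and 3 were not called. The 7 were Pfkp, Aldoc, Pfkl, Eno2, Pdk1, Hk2 and Slc2a3, and by 72 h Pfkp stood 13.2-fold and Aldoc 13.3-fold below the EtOH mean. Slc2a1, Hk1 and Ldhb were not called. Over all genes, 36.9% were called in this comparison, 19% lower and 17.9% higher. The median change was −1.22 over the 10 genes and 0.03 over all genes. The 10 genes were chosen with earlier results of these data known, so these contrasts with all genes only describe the chosen genes. Calls are those of limma at a Benjamini-Hochberg adjusted p under 0.05 over all 19938 genes, with the 3 late arrays of an agent (24, 48 and 72 h) serving as its repeats against the 4 EtOH arrays. All 3 late ATRA arrays lay below all 4 EtOH arrays for 3 members, Hk2, Pfkl and Pfkp, against 16.2% of all genes. Over the 48 and 72 h arrays this held for 8 members, all but Hk1 and Ldhb, against 24.9% of all genes. A second Hk1 probe set, described with the hexokinases, was below all EtOH arrays at both times.

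**Figure D1:**
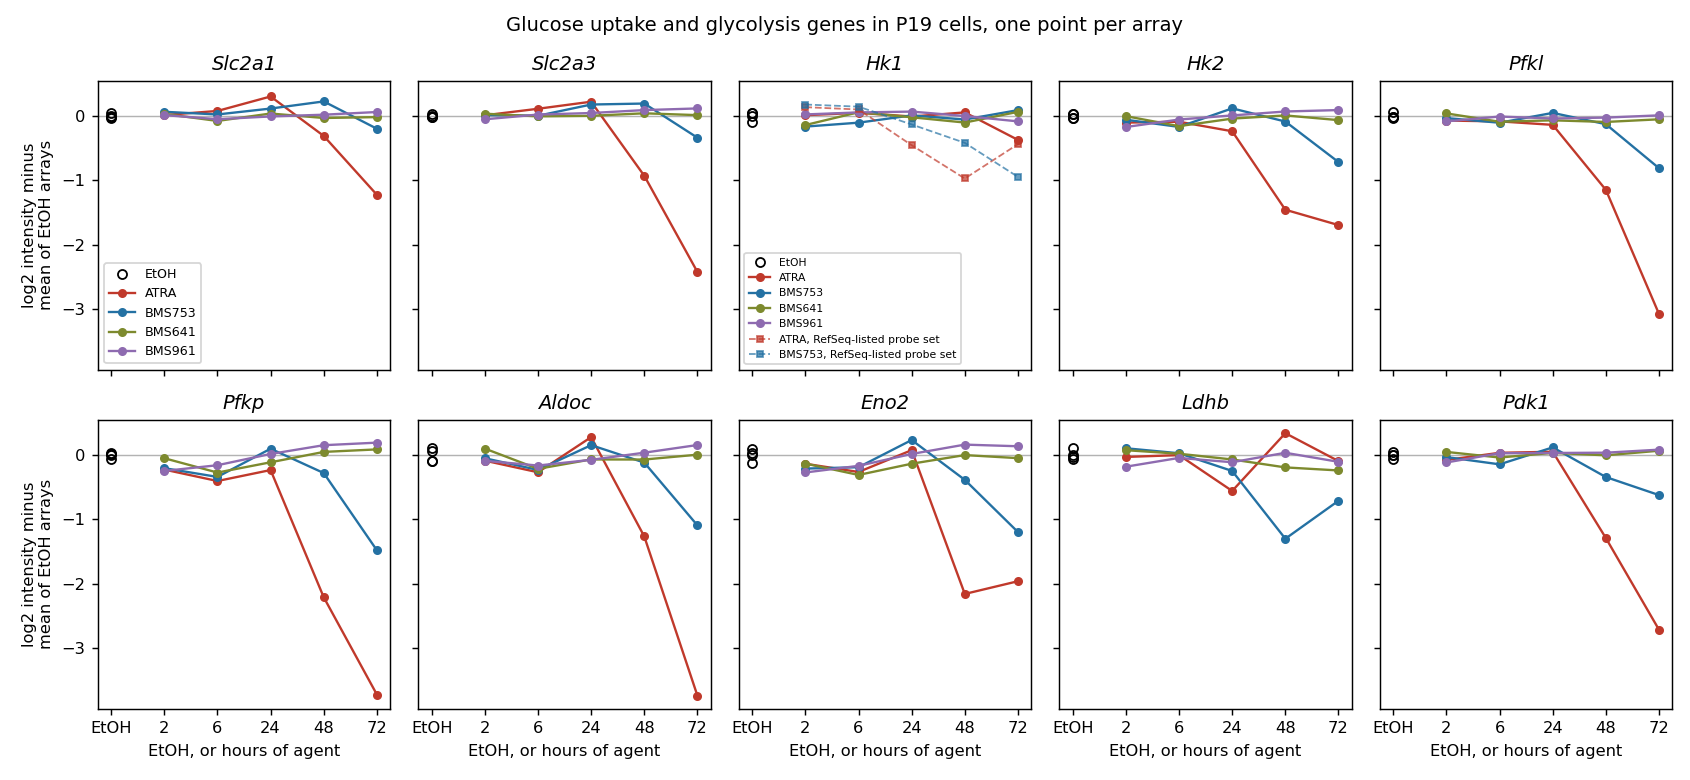
Log2 intensity of each gene minus the mean of the 4 EtOH arrays (vertical axis) against the EtOH arrays and hours of agent (horizontal axis), 1 point per array, lines joining the arrays of an agent. In the ATRA arrays 8 genes lie below all EtOH arrays at 48 and 72 h, in the BMS753 arrays Pfkp reaches −1.48 at 72 h, and the BMS641 and BMS961 arrays stay between −0.31 and 0.19; for Hk1, squares show the second probe set.

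Start regions are shown for Pfkp, Hk2 and Eno2, which fell late with ATRA, and for Ldhb, which was not called. RefSeq windows on build GRCm38.p6, from 250 bases before to 50 after a transcript start, were at hand for 9 of the 10 genes, all but Slc2a3, in 12 windows. They were searched on both strands for ACGTG and GCGTG, the core of the element that HIF binds, for CACGTG, the E-box of Myc, and for AGGTCA, a half-site of nuclear receptors. ACGTG and CACGTG overlap, and every CACGTG holds an ACGTG. Below, capitals mark ACGTG or GCGTG on either strand, read 5′ to 3′ along the gene.
Pfkp, chr13:6648722-6649021, minus strand: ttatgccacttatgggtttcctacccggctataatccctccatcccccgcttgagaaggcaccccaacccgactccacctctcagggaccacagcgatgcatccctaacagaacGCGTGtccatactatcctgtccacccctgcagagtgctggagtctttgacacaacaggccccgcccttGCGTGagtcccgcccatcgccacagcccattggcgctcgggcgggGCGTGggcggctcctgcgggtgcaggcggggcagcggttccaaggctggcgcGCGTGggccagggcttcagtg
Hk2, chr6:82774405-82774704, minus strand: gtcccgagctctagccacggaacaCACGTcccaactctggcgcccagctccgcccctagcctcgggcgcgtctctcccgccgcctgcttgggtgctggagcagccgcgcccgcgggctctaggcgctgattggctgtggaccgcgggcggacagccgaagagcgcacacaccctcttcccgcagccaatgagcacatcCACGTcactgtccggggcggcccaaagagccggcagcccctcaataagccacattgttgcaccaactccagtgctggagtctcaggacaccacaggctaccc
Eno2, chr6:124769624-124769923, minus strand: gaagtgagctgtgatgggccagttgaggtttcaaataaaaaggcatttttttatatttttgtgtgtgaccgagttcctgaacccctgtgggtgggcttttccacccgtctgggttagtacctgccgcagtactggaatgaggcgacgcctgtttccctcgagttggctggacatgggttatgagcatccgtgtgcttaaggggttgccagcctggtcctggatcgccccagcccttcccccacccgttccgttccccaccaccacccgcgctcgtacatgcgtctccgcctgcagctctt
Ldhb, chr6:142507908-142508207, minus strand: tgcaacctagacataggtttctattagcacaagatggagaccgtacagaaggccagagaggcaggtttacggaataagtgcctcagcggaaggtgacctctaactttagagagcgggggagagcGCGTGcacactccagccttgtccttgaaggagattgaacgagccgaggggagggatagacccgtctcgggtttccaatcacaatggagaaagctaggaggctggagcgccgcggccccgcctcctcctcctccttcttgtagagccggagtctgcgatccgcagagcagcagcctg
The Pfkp window held 4 GCGTG, the Hk2 window 2 ACGTG, the Ldhb window 1 GCGTG and 1 AGGTCA, and the Eno2 window had none of the 4 motifs. Genes not called late with ATRA had matches too. An Hk1 window not printed held 2 ACGTG and 3 GCGTG, and the Slc2a1 window 1 of each, while the other Hk1 window had neither. Of the called genes not printed, Aldoc had 1 ACGTG and 2 GCGTG in 1 window and 1 GCGTG in the other. Pdk1 had 2 GCGTG in 1 window and neither motif in the other, and Pfkl had 1 GCGTG. Among the 12 windows, ACGTG was in 4, GCGTG in 8, CACGTG in 0 and AGGTCA in 1. Among all 32851 windows of the table the shares were 19.6% for ACGTG, 32.4% for GCGTG, 7.15% for CACGTG and 16.3% for AGGTCA. The windows printed had a GC content of 64.7% (Pfkp), 67.3% (Hk2), 56.3% (Eno2) and 57.3% (Ldhb), against a median of 52.7% over all windows. Matches are letters in these windows and say nothing of binding.

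Of the transporters, Slc2a3 fell late with ATRA and Slc2a1 was not called. Slc2a3 encodes GLUT3, a high-affinity glucose transporter best known from neurons. With ATRA its log2 intensity was 13.19, 13.29, 13.40, 12.25 and 10.75 at 2, 6, 24, 48 and 72 h, against 13.21, 13.16, 13.17 and 13.16 on the EtOH arrays. The 24 h ATRA array thus lay above all EtOH arrays, and the 48 and 72 h arrays lay below them. Late with ATRA, Slc2a3 fell by 1.04 ± 0.31 (standard error, SE, of the fit; limma adjusted p = 0.0157, n = 3 and 4). Without the 48 h arrays of all agents the adjusted p was 0.0531, and without the 72 h arrays the change was −0.35 with an adjusted p of 0.166. Slc2a1 encodes GLUT1, the basal glucose transporter of many cells. Its values were 13.33, 13.40, 13.62, 13.01 and 12.10 with ATRA, against 13.36, 13.32, 13.29 and 13.30 with EtOH. It had the same order as Slc2a3, above EtOH at 24 h and below it later, and the late mean was −0.41 ± 0.18 (limma adjusted p = 0.0935, n = 3 and 4). Without the 24 h arrays that mean was −0.77 (adjusted p = 0.000387).

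Of the hexokinases, Hk2 fell with ATRA, whereas the value of Hk1 depended on the probe set. Hk2 encodes the inducible hexokinase that is abundant in many tumours. The ATRA arrays gave 10.69, 10.70, 10.56, 9.34 and 9.10 for Hk2 in order of time, against 10.82, 10.82, 10.76 and 10.76 with EtOH. Every ATRA array was below every EtOH array, and the large step came between 24 and 48 h. The dips at 2 and 6 h were not particular to ATRA. Hk2 was lower still at 2 h of BMS961 (10.62) and at 6 h of BMS753 (10.62) and BMS641 (10.64). Late, Hk2 fell by 1.13 ± 0.20 (limma adjusted p = 0.000508, n = 3 and 4). Hk1 encodes the hexokinase found in most tissues. By the rule its brighter probe set was kept, and late with ATRA it stood at −0.11 ± 0.08 (limma adjusted p = 0.313, n = 3 and 4). That probe set lists a single sequence entry, which 16 probe sets carrying the symbols of both Hk1 and Rpl17, a ribosomal protein gene, also list. On 8 of the 12 late arrays its change lay within the range of those 16, and it was never more than 0.33 from their median. That median moved clearly only at 72 h of ATRA, to −0.70, where this Hk1 probe set stood at −0.37, near the top of the range (−0.36). On the other late arrays the median lay between −0.03 and 0.10, so closeness there says little. The other Hk1 probe set, which lists RefSeq mRNAs, was up to 1.04 from that median. It gave −0.45, −0.97 and −0.44 at 24, 48 and 72 h with ATRA and −0.13, −0.42 and −0.94 with BMS753. In a fit added after the data were seen, with this probe set for Hk1, Hk1 changed late by −0.62 with ATRA (limma adjusted p = 0.00237, n = 3 and 4) and by −0.50 with BMS753 (limma adjusted p = 0.0243, n = 3 and 4).

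**Figure D2:**
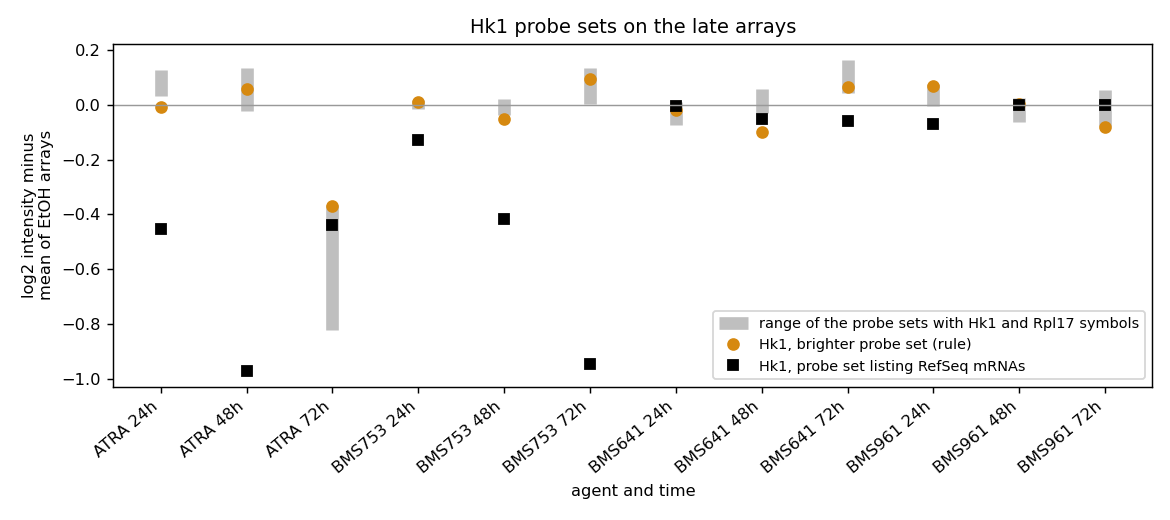
Change of the 2 Hk1 probe sets from the EtOH mean in log2 units (vertical axis) on each of the 12 late arrays (horizontal axis), with grey bars for the range of the 16 probe sets that carry both Hk1 and Rpl17 symbols. The brighter probe set (orange) stays within 0.33 of the median of the grey probe sets, while the probe set listing RefSeq mRNAs (black) falls to −0.97 at 48 h of ATRA and −0.94 at 72 h of BMS753.

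Both phosphofructokinases fell with ATRA, and Pfkp had the largest late fall of the 10 genes. Pfkp encodes the platelet type of the enzyme and Pfkl the liver type. Pfkp read 10.14, 9.96, 10.13, 8.15 and 6.64 with ATRA in order of time, against 10.38, 10.37, 10.31 and 10.40 with EtOH. Every ATRA array, from 2 h on, was below every EtOH array. The 2 h arrays of BMS753 (10.16) and BMS961 (10.12) were below them too, so the early dip was not particular to ATRA. Pfkl read 12.02, 12.01, 11.95, 10.94 and 9.02 with ATRA, against 12.15, 12.08, 12.06 and 12.07 with EtOH. It too was below all EtOH arrays at each time, by little until 24 h and 8.42-fold below the EtOH mean at 72 h. Late, Pfkp fell by 2.05 ± 0.43 (limma adjusted p = 0.00175, n = 3 and 4) and Pfkl fell by 1.45 ± 0.35 (limma adjusted p = 0.00403, n = 3 and 4). Without the 72 h arrays the changes were −1.22 for Pfkp and −0.64 for Pfkl, and both calls held.

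Aldoc and Eno2, the aldolase and enolase isoforms of brain, fell late with ATRA. Aldoc read 11.52, 11.34, 11.88, 10.34 and 7.87 with ATRA in order of time, against 11.72, 11.52, 11.51 and 11.67 with EtOH. It was above all EtOH arrays at 24 h and below all of them at 48 and 72 h. Eno2 read 9.97, 9.84, 10.18, 7.95 and 8.15 with ATRA, against 10.20, 10.14, 9.98 and 10.10 with EtOH. At 24 h it was within the EtOH range, and unlike Aldoc it was no lower at 72 h than at 48 h. Aldoc fell by 1.57 ± 0.48 (limma adjusted p = 0.018, n = 3 and 4) and Eno2 fell by 1.35 ± 0.32 (limma adjusted p = 0.00432, n = 3 and 4). The call of Aldoc was lost without the 72 h arrays (−0.49, adjusted p = 0.14) and that of Eno2 without the 48 h arrays (−0.94, adjusted p = 0.0556).

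At the pyruvate branch, Pdk1 fell and Ldhb did not move with the others. Pdk1 read 10.02, 10.13, 10.14, 8.80 and 7.38 with ATRA in order of time, against 10.14, 10.04, 10.10 and 10.10 with EtOH. Its 48 and 72 h arrays were below all EtOH arrays. Its 24 h array (10.145) was barely above the highest of them (10.139). Late, Pdk1 fell by 1.32 ± 0.32 (limma adjusted p = 0.00495, n = 3 and 4), and without the 72 h arrays its change was −0.62 with the call kept. Ldhb encodes the heart-type subunit of lactate dehydrogenase. It read 10.23, 10.26, 9.70, 10.60 and 10.17 with ATRA, against 10.22, 10.19, 10.37 and 10.25 with EtOH. It was low at 24 h, high at 48 h and just below the EtOH arrays at 72 h, and the late mean was −0.10 ± 0.20 (limma adjusted p = 0.728, n = 3 and 4). Both probe sets of Ldhb list RefSeq mRNAs. The values are those of the brighter one, and the course of the other is not given here. Late with ATRA, Ldhb was not called in any of 17 alternatives, the mean of its probe sets among them. Without the 24 h arrays of all agents the falls were over 1.5 times as large for 4 called members, at −1.67 for Slc2a3, −2.50 for Aldoc, −2.06 for Eno2 and −2.0 for Pdk1.

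With BMS753, given at the same dose as ATRA, Ldhb was the 1 member called late, and it was lower. Over all genes 13.5% were called, 6.94% lower. Ldhb read 10.37, 10.29, 10.01, 8.96 and 9.55 with BMS753 at 2, 6, 24, 48 and 72 h, against 10.22, 10.19, 10.37 and 10.25 with EtOH. Its 3 late arrays were all below all EtOH arrays, as for 10.5% of all genes, and with ATRA the 48 h array had been above them. Ldhb fell by 0.75 ± 0.20 (limma adjusted p = 0.0214, n = 3 and 4), a call lost without EtOH array 3 and without the arrays of 2, 6, 48 or 72 h (adjusted p from 0.0575 to 0.0779). Without the 48 h arrays its change was −0.48. The other 9 members lay between −0.55 (Pfkp) and 0.05 (Slc2a1). Agents share the EtOH arrays, so their changes from EtOH are not independent of each other.

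The lowest BMS753 value was that at 72 h for 8 members, all but Hk1 and Ldhb, and for each of these 8 it lay above the 48 h value with ATRA. This order was counted for the members only, so it is not shown to be particular to them. Pfkp, Aldoc and Eno2 are given as examples. At 24, 48 and 72 h Pfkp read 10.13, 8.15 and 6.64 with ATRA, against 10.46, 10.08 and 8.88 with BMS753. Aldoc read 11.88, 10.34 and 7.87 with ATRA, against 11.76, 11.49 and 10.51 with BMS753. Eno2 read 10.18, 7.95 and 8.15 with ATRA, against 10.34, 9.72 and 8.91 with BMS753. On both the 48 and 72 h BMS753 arrays, 7 members were below all EtOH arrays, namely Hk2, Pfkl, Pfkp, Aldoc, Eno2, Ldhb and Pdk1, against 21.8% of all genes. So was the Hk1 probe set listing RefSeq mRNAs, which is not in that count.

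Set against EtOH 1 array at a time, with the spread of a lone array taken to be that of the EtOH arrays, more members were called lower at 48 and 72 h than at earlier times of ATRA and of BMS753, and 0 at any time of BMS641 or BMS961. This fit was added after the data were seen, and calls are again limma's at an adjusted p under 0.05. No array was repeated at its time, so these calls describe single arrays against a spread that may be technical. The timing has no replicate check. Calls are adjusted within each array, so a like change can be called on 1 array and not on another. Eno2 at 6 h stood at −0.26 with ATRA and −0.31 with BMS641, and Aldoc at −0.27 and −0.21. Calls at 6 h thus do not set ATRA apart from BMS641 for these genes. With ATRA, 0 members were called at 2 h, where 1.91% of all genes were, and 3 were lower at 6 h (Pfkp, Aldoc and Eno2), as were 3% of all genes. At 24 h of ATRA 3 were higher (Slc2a1, Slc2a3 and Aldoc), as were 9.45% of all genes, and 3 were lower (Hk2, Pfkp and Ldhb), as were 12.5%. At 48 h of ATRA 8 were lower (20.8% of all genes) and 1, Ldhb, was higher (18.6%). At 72 h of ATRA 9 were lower, all but Ldhb, as were 24.1% of all genes. With BMS753, 0 members were called at 2 h (1.1% of all genes) and Pfkp alone was lower at 6 h (0.973%). At 24 h of BMS753 Slc2a3 was higher (3.69% of all genes) and Ldhb lower (1.9%). At 48 h of BMS753 Slc2a1 and Slc2a3 were higher (12.1%) and Pfkp, Eno2, Ldhb and Pdk1 lower (12.3%). At 72 h of BMS753 9 were lower, all but Hk1, as were 17.7% of all genes; the Hk1 probe set listing RefSeq mRNAs stood at −0.94 there. With BMS641, 0 members were called in limma at 2, 6, 24, 48 or 72 h, where 0.0702%, 0.12%, 0.236%, 0.191% and 0.331% of all genes were. With BMS961, 0 members were called either, where 0.13%, 0.351%, 0.296%, 0.808% and 1.34% of all genes were, and on each array of these agents 0 to 4 members had an unadjusted p under 0.05. At 72 h the 5 deepest falls with ATRA were those of Aldoc (13.3-fold), Pfkp (13.2-fold), Pfkl (8.42-fold), Pdk1 (6.56-fold) and Slc2a3 (5.36-fold). With BMS753 at 72 h the same genes were lower by 2.13-fold (Aldoc), 2.79-fold (Pfkp), 1.75-fold (Pfkl), 1.54-fold (Pdk1) and 1.26-fold (Slc2a3).

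A direct comparison of ATRA with BMS753 over the late arrays, at the shared dose of 1 µM, called 1 member, Hk2, which was lower with ATRA. Over all genes 10.4% were called, 5.93% lower with ATRA. Hk2 read 10.56, 9.34 and 9.10 with ATRA at 24, 48 and 72 h, against 10.91, 10.71 and 10.08 with BMS753, so ATRA was lower at each matched time, although its 24 h value lay above the 72 h value with BMS753 and the groups overlapped. The difference was −0.90 ± 0.21 (limma adjusted p = 0.0181, n = 3 and 3), and the call was lost without the arrays of 2, 6 or 48 h and in a fit of only these agents' arrays (adjusted p from 0.0569 to 0.413). For 9 members the unadjusted p was under 0.05, all but Hk1, as it was for 5920 of all 19938 genes. For Pfkp the difference was −1.50, with a 95% interval of −2.48 to −0.52 and a limma adjusted p of 0.0505 (n = 3 and 3). For Slc2a3 it was −1.05 (interval −1.76 to −0.35) and for Pfkl −1.16 (interval −1.94 to −0.37). Without the 72 h arrays these were −0.54 for Slc2a3 and −0.60 for Pfkl, and without the 24 h arrays −1.60 and −1.64. The late mean difference of Ldhb was 0.65 (interval 0.19 to 1.1, limma adjusted p = 0.0653, n = 3 and 3), from −0.31 at 24 h, 1.64 at 48 h and 0.62 at 72 h. It was 0.15 without the 48 h arrays and 1.13 without the 24 h arrays. Time by time, the median ATRA minus BMS753 difference over the 10 genes was −0.04 at 2 h, 0.04 at 6 h, −0.11 at 24 h, −1.07 at 48 h and −1.56 at 72 h.

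**Figure D3:**
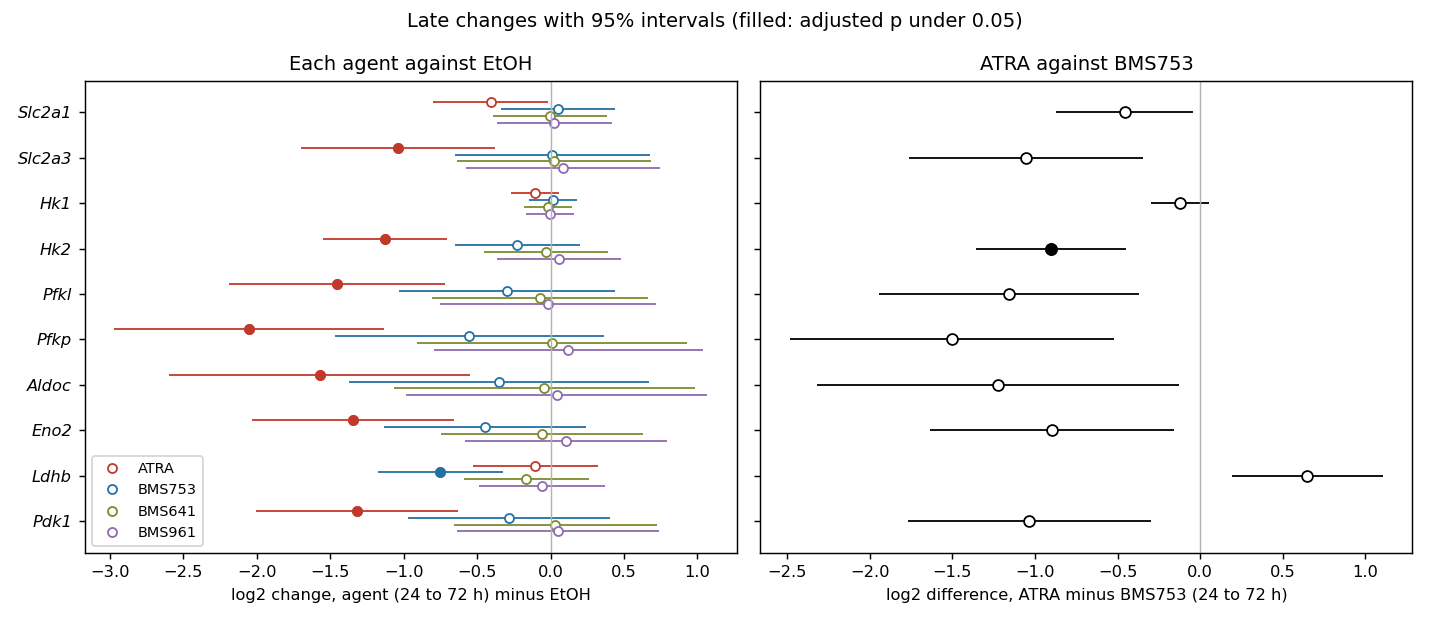
Late log2 change of each gene (horizontal axes) with its 95% interval, for each agent minus EtOH on the left and for ATRA minus BMS753 on the right; filled points have an adjusted p under 0.05. Filled points are 7 genes with ATRA, Ldhb with BMS753, and Hk2 between ATRA and BMS753.

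With BMS641 and BMS961, both at 0.1 µM, 0 members were called late or early, and 0 had an unadjusted p under 0.05 in limma. Such a p was found late for 625 of 19938 genes with BMS641 and 769 with BMS961, and early for 468 and 582. Late, 0% of all genes were called with BMS641 and 0.00502% with BMS961. Over the late arrays the members lay between −0.17 (Ldhb) and 0.03 (Pdk1) with BMS641 and between −0.06 (Ldhb) and 0.12 (Pfkp) with BMS961. The interval for Pfkp ran from −0.91 to 0.93 with BMS641 and from −0.80 to 1.04 with BMS961. Changes of the size seen with ATRA (−2.05) lay outside both. These widths reflect a spread pooled over all agents. On the late BMS641 arrays themselves Pfkp stood at −0.11, 0.05 and 0.09, and on those of BMS961 at 0.02, 0.15 and 0.19. Pfkl and Ldhb were below all EtOH arrays on the 3 late BMS641 arrays, against 4.71% of all genes, and Slc2a3 was above them on the 3 late BMS961 arrays, against 5.88%. In the direct comparison of BMS961 with BMS641, 0 members were called late or early (0% of all genes in both), and the late difference of Pfkp was 0.11 with an interval of −0.87 to 1.09. The doses of these agents are lower than those of ATRA and BMS753, so agent and dose cannot be told apart between the pairs.

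Early, over 2 and 6 h, 0 members were called with ATRA (0.858% of all genes) or with BMS753 (0.306%), and 0 had an unadjusted p under 0.05. Of 19938 genes, 1582 had such a p with ATRA and 2081 with BMS753. A fit whose spread came from EtOH arrays only called 1 member for each, where it called 7.03% of all genes with ATRA and 4.55% with BMS753. The lowest early mean was that of Pfkp, at −0.31 with ATRA and −0.27 with BMS753. Between ATRA and BMS753 early, 0 members and 0% of all genes were called. At 6 h Pfkp was also low with the other agents, at −0.40 with ATRA, −0.34 with BMS753, −0.27 with BMS641 and −0.16 with BMS961.

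The counts of the lists that follow stand beside 36.9% of all genes called late with ATRA and 13.5% with BMS753. Other transporters and enzymes of glycolysis were measured in a list of 24 genes. Late with ATRA 12 were lower, 3 higher and 9 not called, with a median change of −0.24. Pfkm, the muscle type of phosphofructokinase, fell by 1.38 ± 0.15, so that all 3 phosphofructokinase genes were lower. The transporter genes Slc2a6 (−1.01 ± 0.17) and Slc2a12 (−0.64 ± 0.19) fell, as did Ldha, which encodes the muscle-type lactate dehydrogenase subunit (−0.66 ± 0.17), the isomerase gene Tpi1 (−0.58 ± 0.13) and the widespread aldolase gene Aldoa (−0.58 ± 0.14). Higher were Eno3, the muscle enolase (1.31 ± 0.19), Slc2a4, which encodes the insulin-responsive transporter GLUT4 (0.48 ± 0.09), and Pgam2, a muscle phosphoglycerate mutase (0.23 ± 0.08). The enolases thus went opposite ways: on the 48 and 72 h ATRA arrays Eno3 stood at 1.62 and 1.94 and Eno2 at −2.16 and −1.96. Of the other members' isoforms, Hk3 stood at 0.29, Ldhc at −0.09 and Pdk2 at −0.13, and none of these was called. With BMS753 late 3 of the 24 were lower and 1 higher, among them Pfkm (−0.94 ± 0.15) and Eno3 (1.1 ± 0.19).

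Of 16 genes of pyruvate and lactate handling, 10 were lower and 2 higher late with ATRA, with a median of −0.35. The monocarboxylate (lactate) transporter genes Slc16a3 (−1.04 ± 0.26) and Slc16a1 (−0.73 ± 0.17) fell and Slc16a7 rose (0.49 ± 0.13). Pcx, pyruvate carboxylase, fell by 1.38 ± 0.24. The kinases of pyruvate dehydrogenase were not uniform, with Pdk4 at −0.64 ± 0.06 beside Pdk1 and Pdk3 higher at 0.85 ± 0.11. The phosphatase gene Pdp1, whose product reverses these kinases, fell by 0.70 ± 0.20. With BMS753 4 of the 16 were lower and 1 higher, and Pdk3 was the higher one (0.37 ± 0.11).

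Of 10 genes of fructose 2,6-bisphosphate and gluconeogenesis, 3 were lower and 1 higher late with ATRA, with Pfkfb2 (−1.41 ± 0.17) and Pfkfb3 (−0.63 ± 0.22), makers of an activator of phosphofructokinase, and Pck2 (−1.49 ± 0.16), mitochondrial phosphoenolpyruvate carboxykinase. Those 4 of 10 are near the 36.9% called over all genes. Of 7 pentose phosphate genes 4 were lower and 0 higher, among them the transketolase gene Tkt (−0.50 ± 0.12). Of 17 TCA cycle genes 13 were lower and 1 higher with a median of −0.23, led by Idh3a (−1.21 ± 0.16), and Idh2 was the higher one (0.36 ± 0.12). With BMS753 late the counts were 2 lower and 1 higher of the 10, 0 of the 7, and 2 lower and 1 higher of the 17.

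**Figure D4:**
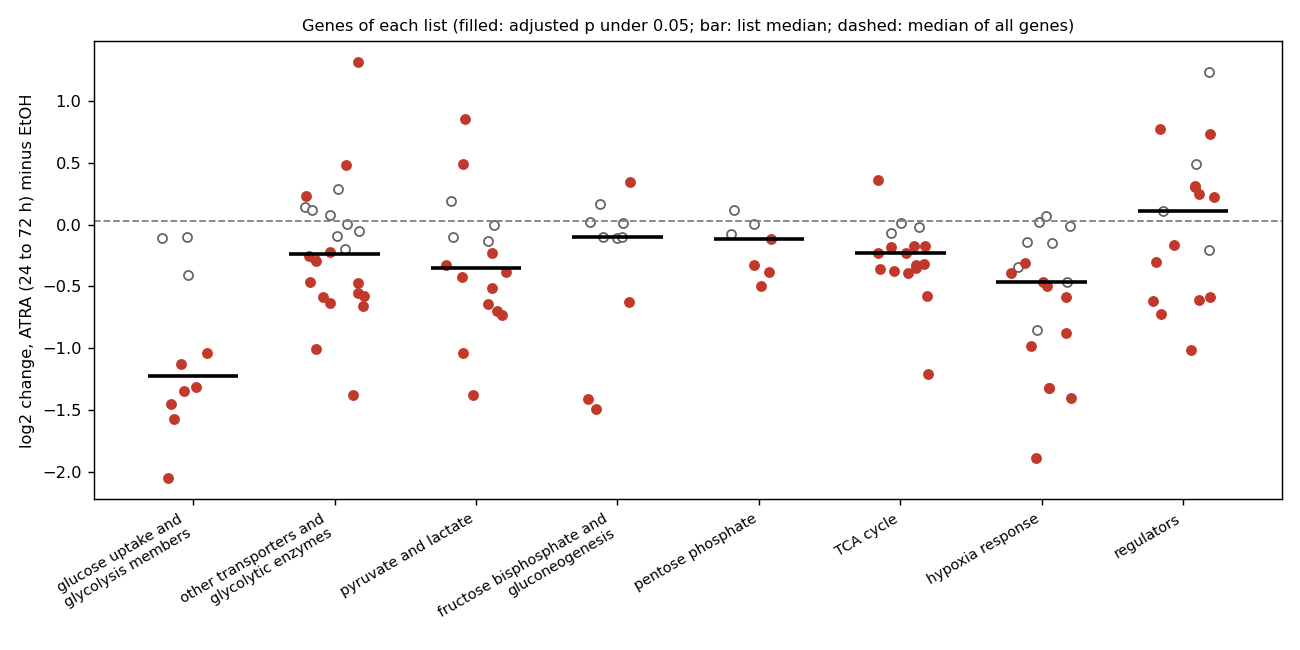
Late log2 change with ATRA against EtOH (vertical axis) for each gene of 8 lists (horizontal axis); filled points have an adjusted p under 0.05, bars are list medians and the dashed line is the median of all genes. The 10 genes have a median of −1.22, the other transporters and glycolytic enzymes −0.24 and the hypoxia response genes −0.47. The genes and lists were chosen with earlier results of these data known.

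Genes that respond to hypoxia were read beside the members. Late with ATRA 11 of 19 were lower and 0 higher, with a median of −0.47. Ddit4, an inhibitor of mTORC1 signalling, fell by 1.89 ± 0.30, Bnip3, a mitophagy receptor, fell by 1.40 ± 0.36, Ndrg1 fell by 1.32 ± 0.25 and Ero1a, an oxidase of the endoplasmic reticulum, fell by 1.32 ± 0.27. Fam162a (−0.99 ± 0.23) and Higd1a (−0.88 ± 0.25) were also lower. With BMS753 late 1 of the 19 was lower, Mxi1 (−0.50 ± 0.09), and the list median at 24, 48 and 72 h was 0.02, −0.86 and −0.66 with ATRA, against 0.12, −0.06 and −0.54 with BMS753.

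Of 17 regulators of these genes, 6 were higher and 7 lower late with ATRA. The HIF subunit genes named here were divided, with Hif3a at −1.01 ± 0.14, Arnt at −0.62 ± 0.12 and Arnt2 at 0.73 ± 0.12. Hif1a and Epas1 were measured too but were not among the 6 called regulators with the largest changes. Myc fell by 0.73 ± 0.14 and Mlxipl, which encodes the glucose-sensing factor ChREBP, fell by 0.61 ± 0.09. Ppargc1a, a coactivator of mitochondrial genes, rose by 0.77 ± 0.20. With BMS753 late 4 of the 17 were lower and 0 higher, among them Mlxipl (−0.64 ± 0.09) and Hif3a (−0.53 ± 0.14).

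Over the 20 treated arrays, the genes most like Pfkp were Mgarp and Gdf3, a signal of the TGF-beta family made by pluripotent cells, with root mean square differences of 0.27 log2 units each. Aldoc also stood at 0.27. The other members stood at 0.35 (Pfkl), 0.40 (Pdk1), 0.41 (Eno2), 0.53 (Hk2), 0.54 (Slc2a3), 0.80 (Slc2a1), 0.99 (Hk1) and 1.06 (Ldhb). Gdf3 read −0.49, −2.22 and −2.80 from the EtOH mean at 24, 48 and 72 h of ATRA, where Pfkp read −0.23, −2.21 and −3.72. Ldhb, whose late mean with ATRA was the highest of the 10 although below 0 (−0.10), was most like Phka1, a subunit gene of phosphorylase kinase, and Kif5c, a kinesin gene of neurons, with differences of 0.15 and 0.18.

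Markers of cell types were read on the same arrays, beside 36.9% of all genes called late with ATRA. Late with ATRA 9 of 12 pluripotency genes were lower and 0 higher, among them Pou5f1 (−4.07 ± 0.81) and Dnmt3b (−3.04 ± 0.39). The list median was −0.30, −2.04 and −2.72 at 24, 48 and 72 h of ATRA and 0.01, −0.33 and −1.23 with BMS753, against −0.05 to 0.02 on the EtOH arrays. The medians of the 10 members were 0.02, −1.21 and −2.19 with ATRA and 0.12, −0.12 and −0.71 with BMS753, against −0.03 to 0.04 with EtOH. Of 12 neuron genes 4 were higher and 0 lower, with list medians of −0.54, 0.29 and 1.50 at those times of ATRA and −0.19, −0.14 and −0.38 with BMS753, against −0.02 to 0.03 with EtOH. Over the late phase as a whole, the shares called of the neuron and glia genes with ATRA were below that of all genes. The neuron median with ATRA changed sign within that phase. Of 8 glia genes 1 was higher and 1 lower, the 12 endoderm genes included 6 that were higher and 0 that were lower, and the 11 fibroblast and smooth muscle genes 7 and 1. On the late ATRA arrays the list medians ran from 0.03 to 0.12 for glia, from 0.06 to 0.57 for endoderm and from 0.10 to 1.22 for fibroblast and smooth muscle. On the late BMS753 arrays they ran from −0.05 to 0.06 for glia, from −0.08 to 0.37 for endoderm and from −0.07 to 0.97 for fibroblast and smooth muscle. The part of a changing mix of cells in the values of the 10 genes was not tested.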

How the data were processed

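The data are 24 Affymetrix Mouse Gene 1.0 ST arrays. The deposited log2 intensities per probe set came from Affymetrix Expression Console 1.1, per the submitters' processing notes. The method of background correction and of scaling between arrays was not given in the sources used here. A log2 scale was inferred from values between 2.86 and 14.30. Precision is limited by how many arrays there were. Of 35556 probe sets, 21789 had 1 symbol, 1621 several and 12146 none in the annotation table used here. By RefSeq identifiers 21698 matched and 0 symbols changed, which left 19938 genes, 999 of them with several probe sets.

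One fit with limma 3.58.1 in R 4.3.3 (lmFit, eBayes with trend=TRUE) held all 24 arrays: EtOH had 1 mean, each agent had an early (2 and 6 h) and a late (24, 48 and 72 h) mean, time terms within a phase were shared by the agents, with 12 residual and 3.1 prior degrees of freedom. The residual holds any agent-specific course within a phase. There were 12 two-sided comparisons, each adjusted over all genes, and intervals are 95% intervals of that fit. The script was tested on simulated data. The fit of single times had 3 residual degrees of freedom.

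The members and lists were chosen with earlier results of these data known. Named were all members, up to 6 called genes of each other list by size of change, isoforms of members, and the 2 genes most like the members with the lowest and the highest late mean with ATRA. Alternatives left out the dimmest genes (13292 left), each EtOH array or each time, dropped the time terms, averaged the probe sets of a gene, repeated quantile normalization, used robust moderation, took the spread from EtOH arrays only, or fitted only the compared groups. Probe sets listing RefSeq mRNAs and single times were added after the data were seen.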

Additional observations from a re-analysis of the deposited data

How the results depend on the processing

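The count of 7 lower members late with ATRA ranged from 5 to 8 when an EtOH array or a time was left out and from 7 to 9 otherwise, and Hk2, Pfkl, Pfkp and Pdk1 kept their calls in all 17 alternatives. Of the genes tested, 29% to 44.9% were called when an EtOH array or a time was left out, and 34.1% to 51.5% otherwise. For BMS753 late (1 member) the count was 2 with the mean of probe sets (13.7% of all genes called). It was also 2 with probe sets listing RefSeq mRNAs (13.5%), a fit added after the data were seen. It was 7 with the spread taken from EtOH arrays only (31.3%) and 7 with only the groups compared (31.4%). When an EtOH array or a time was left out it was 0 to 4 (5.27% to 26.9%). For ATRA against BMS753 late (1 member) it was 4 without the dimmest genes (16.4% of the genes tested were called). It was 10 with the spread taken from EtOH arrays only (35.2%) and 0 with only the groups compared (0%). When a time or an EtOH array was left out it was 0 to 9 (1.59% to 23.7%), where 9 was without the 24 h arrays (23.7%). For ATRA early and for BMS753 early (0 members each) it was 1 with the spread taken from EtOH arrays only (7.03% and 4.55% of all genes). It was also 1 for each with only the groups compared (6.98% and 4.52%). For ATRA against BMS753 early (0 members) it was 1 with only the groups compared (1.19%). In comparisons with EtOH, a fit of the compared groups has no other spread than that of EtOH. Hk1 late with BMS753, at 0.02, reversed to −0.24 (limma adjusted p = 0.0096) with the mean of probe sets and to −0.50 (limma adjusted p = 0.0243) with the probe set listing RefSeq mRNAs. The cause of these moves was not tested, apart from the choice of probe set. Counts over all genes ranged from 5784 to 9558 for ATRA late (7362), from 1051 to 6255 for BMS753 late (2683), from 18 to 1402 for ATRA early (171), from 2 to 908 for BMS753 early (61), and from 0 to 7024 for ATRA against BMS753 late (2067). Where 0 or 1 genes were called, the highest counts were 125 and 30 for BMS641 late and early, 464 and 70 for BMS961 late and early, 237 for ATRA against BMS753 early, and 69 and 8 for BMS961 against BMS641 late and early. Only the EtOH arrays carry replicate numbers, so agents are matched by time, and the fit of only these groups for ATRA against BMS753 late (2 residual degrees of freedom) is a matched fit. No array was repeated at its own agent and time, signal over background is unknown, and probe sets of Pgk1 and Hk1 can share sequence with gene copies.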

Other observations

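Txnip, whose product restrains glucose uptake, and its relative Arrdc4 were picked out after their values were seen. Txnip stood at −0.15, 0.37 and 3.47 from the EtOH mean at 24, 48 and 72 h of ATRA and at 0.07, −0.10 and −0.16 with BMS753. Its late mean with ATRA was 1.23 ± 0.48 (limma adjusted p = 0.0569, n = 3 and 4), so the rise on the single 72 h array was not called over the late phase. Arrdc4 stood at 0.29, −0.21 and 1.38 with ATRA and at −0.07, −0.38 and −0.46 with BMS753, with a late ATRA minus BMS753 difference of 0.79 ± 0.24 (limma adjusted p = 0.0486, n = 3 and 3). That call was lost in the fit of only these agents' late arrays, matched by time, which called 0 of all 19938 genes.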
